A study of Mus musculus with 6 samples.

Results

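The hedgehog ligands, receptors and GLI factors described here are 9 genes of the mouse: Dhh, Ihh, Hhat, Ptch1, Smo, Gpr161, Sufu, Gli1 and Gli2. They were found by name, through the RefSeq accession that each probe of the microarray carries, and are read by 15 of 56570 usable probes. In all, the array named 44911 genes or unnamed transcripts, and all 9 hedgehog genes passed the detection filter. Gene expression had been measured in NIH3T3 cells, an established line of mouse embryonic fibroblasts, on 6 one-colour Agilent arrays. The cells titled GGCT-OE stably carried a retroviral pCX4bsr vector for GGCT (gamma-glutamylcyclotransferase, an enzyme of glutathione breakdown), and the cells titled empty carried the control vector. Both populations were grown with 2% serum, each with 3 arrays from experiments that the titles number 1 to 3. The promoter of the vector, the species of the GGCT coding sequence and whether the populations were clones are not given in the sources used here. The design text calls the 3 experiments independent and does not say whether the infection was repeated. The limma p-values here rest on the spread among the arrays of those 3 experiments, with each gene's variance drawn toward that of all genes tested. Whether they cover any spread between infections is not known.

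Hedgehog proteins are secreted, lipid-modified signals. Without ligand the receptor Patched (Ptch1) holds back the membrane protein Smoothened (Smo), and the GLI transcription factors are processed into repressors or held by Sufu. Ligand binding to Patched frees Smoothened in the primary cilium, full-length GLI proteins then act in the nucleus, and Gli1 and Ptch1 are themselves targets of the pathway. NIH3T3 fibroblasts carry cilia and are a common test cell for this pathway, and Dhh is best known as the ligand of Sertoli cells and of Schwann cells. The series title names Dhh and a knockdown of GGCT in glioblastoma stem cells, whereas the arrays compare fibroblasts with and without the GGCT vector. The array's probe for mouse Ggct stood at -0.14, 0.20 and -0.16 on the GGCT-OE arrays of experiments 1 to 3 and at -0.57, -0.72 and -0.66 on the empty arrays (log2 signal relative to each array's 75th percentile). Every GGCT-OE array was higher, by 0.62 ± 0.12 on average (SE, adjusted p = 0.0111), and the call was lost in 3 of 21 alternative ways of processing.

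With GGCT, 8 of the 9 hedgehog genes were higher at an adjusted p under 0.05 and 0 were lower. The 9 genes were chosen with earlier results of these data known, so this count cannot test whether the pathway moved as a whole. Gli3, a GLI factor outside the 9, was called lower (-0.33, limma adjusted p = 0.0328). Ihh, 1 of the 8, was well above background on all 3 GGCT-OE arrays and on 2 of the 3 empty arrays, and passed the detection filter through the GGCT-OE group. A filter over all 6 arrays left it out and gave 7 genes called. Over all 23851 genes tested, 17.5% were called higher and 17.3% lower, or 34.8% in either direction (limma, Benjamini-Hochberg adjusted over all genes). The differences of the 9 genes ran from 0.41 to 2.12 on the log2 scale, with a median of 0.82, against a median of 0.015 over all genes tested. Dhh, Ihh, Gli1 and Gli2 were called higher with differences of at least 1, as were 3.65% of all genes tested. For all 9 genes every GGCT-OE array lay above every empty array on the brightest probe. Groups that do not overlap in this direction were found for 25.4% of all genes tested, and in either direction for 49.4%. An exact 2-sided permutation test gave each of the 9 genes p = 0.1, the smallest that 3 arrays against 3 allow. In bulk RNA of a culture, fewer expressing cells and less RNA per cell cannot be told apart.

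**Figure D1:**
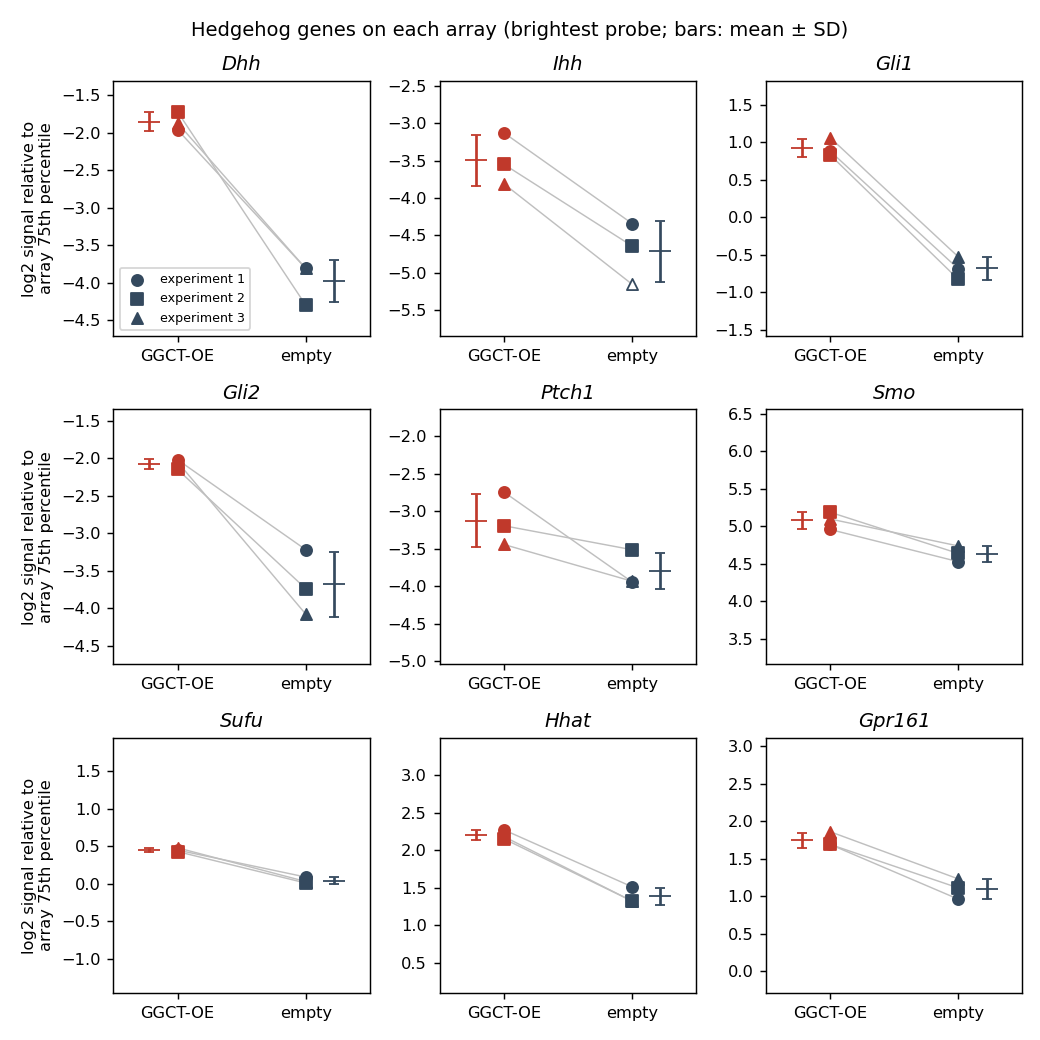
Log2 signal of each hedgehog gene on its brightest probe, relative to the array's 75th percentile, in GGCT-OE (left, red) and empty cells (right, dark), with grey lines joining the arrays of 1 experiment, bars for mean ± SD (n = 3), the same span on every vertical axis, and an open symbol where the probe was not well above background. The 2 groups do not overlap in any panel, and the difference of the means is largest for Dhh, at 2.12, and smallest for Sufu, at 0.41.

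The 250 bases before the annotated start of Dhh, Ihh and Gli2 are shown because these genes had called differences of at least 1 and a promoter in the RefSeq table (build GRCm38.p6). Capitals mark CCACCC or its reverse complement GGGTGG, the core of the sequence that GLI proteins are known to bind.
Dhh, chr15:98898541-98898790, minus strand: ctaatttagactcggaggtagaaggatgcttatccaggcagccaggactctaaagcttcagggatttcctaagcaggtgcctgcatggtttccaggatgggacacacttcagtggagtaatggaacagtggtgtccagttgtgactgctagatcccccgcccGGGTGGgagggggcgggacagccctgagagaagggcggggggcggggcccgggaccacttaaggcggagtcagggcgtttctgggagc
Ihh, chr1:74951673-74951922, minus strand: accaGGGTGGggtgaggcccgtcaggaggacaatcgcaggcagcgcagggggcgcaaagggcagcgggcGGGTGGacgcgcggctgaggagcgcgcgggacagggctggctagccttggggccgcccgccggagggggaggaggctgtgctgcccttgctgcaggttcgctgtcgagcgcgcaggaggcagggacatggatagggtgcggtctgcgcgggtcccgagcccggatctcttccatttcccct
Gli2, chr1:119053620-119053869, minus strand: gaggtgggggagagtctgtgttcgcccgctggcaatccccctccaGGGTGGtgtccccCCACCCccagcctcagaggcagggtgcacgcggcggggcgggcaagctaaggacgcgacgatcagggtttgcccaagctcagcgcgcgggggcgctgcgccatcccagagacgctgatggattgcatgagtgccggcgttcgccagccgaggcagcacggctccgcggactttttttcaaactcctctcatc
The core occurred 1 time in the Dhh window, 83 to 88 bases before the start, and 2 times each in the Ihh and Gli2 windows. It was found on either strand in 4 of the 9 windows listed for 8 of the hedgehog genes (the fourth is that of Smo), and in 28.1% of all 32851 promoter windows of this length. The 9-letter form GACCACCCA, which contains the core, was in 0 of the 9 windows and in 0.225% of all windows. With any base in the fifth place (GACCNCCCA) the counts were 0 of 9 windows and 0.868% of all. These are matches of letters only. The share of G and C in the windows ran from 42.4% for 1 of the pair listed for Gpr161 to 78.4% for Ptch1, against a median of 52.4% over all windows. Gli1 has no entry in the table.

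The share of probes detected was 54.8% to 61.7% on the GGCT-OE arrays and 54.6% to 59.6% on the empty arrays, and the 75th percentile of the signal was 407.6 to 470.5 units with GGCT and 380.0 to 428.8 units in empty cells. Of 11 fibroblast marker genes all were well above background on all 6 arrays, with a summed signal of 1570 to 1950 times the array's 75th percentile in GGCT-OE cells and 2030 to 2460 times in empty cells. Of these genes 2 were called higher and 4 lower, where 17.5% of all genes tested were higher and 17.3% lower. The sum was 0.227 to 0.327 with GGCT and 0.127 to 0.161 in empty cells for 4 epithelial markers (1 on all arrays, Epcam and Cdh1 on none) and 0.264 to 0.325 and 0.137 to 0.170 for 4 endothelial markers (1 on all arrays, Kdr on none, Cdh5 at least 2.18-fold higher with GGCT). It was 1.69 to 1.76 and 1.83 to 2.05 for 4 leukocyte markers (2 on all arrays, Ptprc on none). For 5 neural and glial markers it was 0.499 to 0.707 and 0.474 to 0.667 (2 on all arrays, Sox2 and Olig2 on none). For 3 Sertoli cell markers it was 0.657 to 0.866 and 1.40 to 1.63 (2 on all arrays, Amh on none). Among tested markers of the other lists, 1 of 1 epithelial, 2 of 2 endothelial and 1 of 2 neural and glial markers were called higher. Lower were 1 of 3 leukocyte and 1 of 2 Sertoli cell markers. Cdh5 passed the detection filter through the GGCT-OE group. The part of these markers in the hedgehog differences was not tested.

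Of the ligands, Dhh (Desert hedgehog) had processed signals of 105 ± 10.7, 140 ± 14.3 and 129 ± 13.5 units on the GGCT-OE arrays of experiments 1 to 3. On the empty arrays the signals were 27.1 ± 3.55, 21.6 ± 3.68 and 30.6 ± 4.83 units, where the error is the scanner software's estimate for the spot. All 6 spots were well above background, and the lowest GGCT-OE signal was more than 3 times the highest empty one. Relative to the array's 75th percentile, the log2 signal averaged -1.85 ± 0.12 in GGCT-OE cells and -3.97 ± 0.28 in empty cells (SD, n = 3 each). The difference was 2.12 ± 0.16 (SE, 95% interval 1.74 to 2.51, limma adjusted p = 0.000373), higher than that of 99.5% of the genes tested. It was 1.85, 2.58 and 1.94 within experiments 1, 2 and 3, and experiment 2 held both the brightest GGCT-OE array and the dimmest empty one. Averaged over all 6 arrays, the level of Dhh was above that of 21.5% of the genes tested. Background correction by normexp, which adds an offset to every spot, gave a difference of 0.92 (adjusted p = 0.000183). Over 21 alternatives the adjusted p lay between 8.34e-05 and 0.0168.

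Ihh (Indian hedgehog) was dimmer still. Its brighter probe stood at -3.13, -3.55 and -3.81 on the GGCT-OE arrays and at -4.34, -4.64 and -5.15 on the empty arrays (relative log2 signal, experiments 1 to 3), and the last of these was not well above background. In both populations the signal was highest in experiment 1 and lowest in experiment 3, so that the within-experiment differences were close, at 1.21, 1.09 and 1.34. The mean difference was 1.21 ± 0.26 (SE, adjusted p = 0.0148). The call was lost with normexp background (0.26, adjusted p = 0.152), with the mean of its probes (0.89, adjusted p = 0.0923), when dim probes were kept in the test (adjusted p = 0.0509) and when experiment 2 or experiment 3 was left out (adjusted p = 0.121 and 0.0548). The other Ihh probe stayed near background on all 6 arrays and was not tested. It stood at -5.08, -7.09 and -6.77 with GGCT and at -6.94, -6.99 and -6.72 in empty cells, so that only the GGCT-OE array of experiment 1 was apart.

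Hhat, the acyltransferase that palmitoylates hedgehog ligands, was bright on 1 probe, with signals of 1960, 2050 and 2130 units in GGCT-OE cells and of 1080, 1060 and 1070 units in empty cells. Signals within each population differed little beside the gap between them. The difference was 0.82 ± 0.09 (SE, a fold of 1.76, adjusted p = 0.00146), with 0.76, 0.83 and 0.86 in the 3 experiments. A dimmer probe with the same transcript accession gave another picture, with relative log2 signals of -1.94, -1.63 and -1.38 on the GGCT-OE arrays and -2.36, -1.50 and -1.48 on the empty arrays. There the groups overlapped, and the difference was 0.13 ± 0.27 (limma over all probes, adjusted p = 0.745). Where on the transcript each probe lies is not given in the files.

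**Figure D2:**
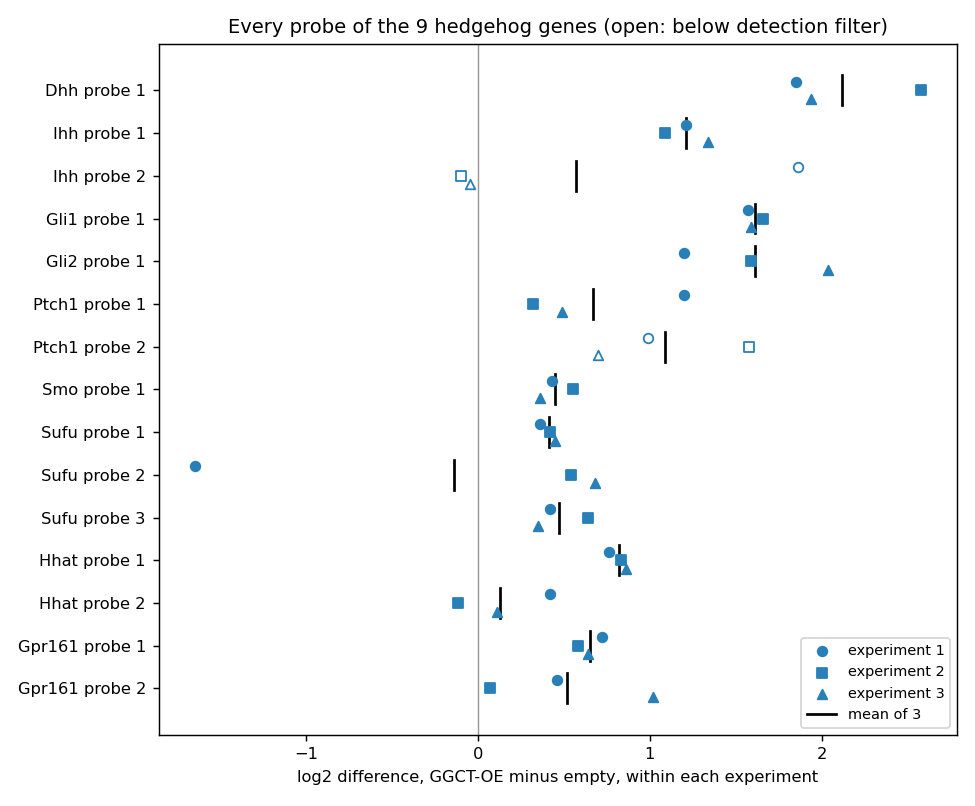
Log2 difference, GGCT-OE minus empty, within each experiment for all 15 probes of the 9 hedgehog genes, numbered by brightness within a gene, with a black line at the mean of the 3 experiments and open symbols for the 2 probes that failed the detection filter. The second probes of Ihh, Sufu and Hhat are those that do not lie above 0 in all 3 experiments. How many of all probes on the array do so was not counted.

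Ptch1, the receptor that binds the ligands, is itself a target of the pathway. Its brighter probe had signals of 61.1, 50.6 and 43.2 units in GGCT-OE cells and of 24.8, 37.3 and 28.1 units in empty cells. The groups did not overlap, but the gap between the lowest GGCT-OE signal and the highest empty signal was about the size of the scanner's spot error (6.11 units for that GGCT-OE array and 4.9 units for that empty array). The difference was 0.67 ± 0.21 (SE, 95% interval 0.15 to 1.19) and missed the threshold over all genes (adjusted p = 0.0553). It was 1.20 in experiment 1, on slide 1, against 0.32 and 0.49 in experiments 2 and 3, on slide 2. Blocking on the replicate number gave an adjusted p of 0.0491, and blocking on the slide one of 0.0474. A dimmer probe of Ptch1 stood well above background on 2 of the 3 GGCT-OE arrays and on no empty array. Its within-experiment differences, 0.99, 1.58 and 0.70, were upward as well, and it was not tested. With the mean of both probes Ptch1 passed (0.88, adjusted p = 0.0208), and normexp background gave 0.21.

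Smo, the signal transducer that Patched restrains, gave the brightest signals of the 9 genes' probes. They were 12700, 16900 and 16100 units in GGCT-OE cells and 8790, 10600 and 11400 units in empty cells, and no spot was saturated. Relative to the array the log2 signal averaged 5.08 ± 0.12 in GGCT-OE cells and 4.64 ± 0.10 in empty cells (SD, n = 3 each). The difference was small, 0.45 ± 0.10 (SE, a fold of 1.36, adjusted p = 0.0184), and alike in the experiments at 0.43, 0.55 and 0.36. Its call was lost in 8 of 21 alternatives, for example when arrays were aligned on their medians (0.42, adjusted p = 0.0553), while its difference stayed between 0.39 and 0.51. Smo has a single probe, and normexp background left the difference at 0.46.

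Gpr161 is a ciliary receptor that keeps the pathway low through protein kinase A. Its brighter probe had relative log2 signals of 1.69, 1.69 and 1.86 on the GGCT-OE arrays and of 0.96, 1.11 and 1.23 on the empty arrays. All GGCT-OE arrays were higher, by 0.65 ± 0.10 on average (SE, adjusted p = 0.00548) and by 0.72, 0.58 and 0.64 within the experiments. The dimmer probe gave 0.46, 0.07 and 1.02 in the same experiments. Its groups overlapped, 1 empty array was not well above background, and its mean difference of 0.52 ± 0.28 did not pass over all probes (adjusted p = 0.198).

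Sufu, which holds GLI proteins in the cytoplasm and is a negative regulator, had the smallest difference of the 9 genes and the tightest arrays. The brightest of its 3 probes stood at 0.45, 0.43 and 0.48 with GGCT and at 0.09, 0.01 and 0.03 in empty cells, a difference of 0.41 ± 0.07 (SE, adjusted p = 0.00804). The dimmest probe moved alike, by 0.47 ± 0.10 (adjusted p = 0.0153), although normexp background gave it 0.02. The middle probe differed by -0.14 ± 0.50 (adjusted p = 0.853), and 1 array stood apart on it. The empty array of experiment 1 had 76.6 units, against 25.8 and 23.9 units on the empty arrays of experiments 2 and 3 and 26.1, 40.7 and 42.0 units on the GGCT-OE arrays. On the median pixel of the spot, before background subtraction, that array stood out less, at 87 units against 61 to 77.5 units on the other 5. Without experiment 1 the probe was higher by 0.61 (adjusted p = 0.01). With the mean of its probes Sufu was not called (0.25, adjusted p = 0.356).

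Among the transcription factors, Gli1 is an activator and the usual readout of pathway activity. Its signals were 751, 822 and 982 units in GGCT-OE cells and 235, 239 and 296 units in empty cells, well above background throughout. In both populations experiment 3 was the brightest, and the within-experiment differences of 1.57, 1.66 and 1.59 were the most even of the 4 genes with differences of at least 1. The mean difference was 1.61 ± 0.11 (SE, 95% interval 1.33 to 1.89, adjusted p = 0.000298). It lay between 1.37 and 1.69 over 21 alternatives and was called in each of them.

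Gli2, the main activator upstream of Gli1, had the same mean difference, 1.61 ± 0.22 (SE, 95% interval 1.08 to 2.14, adjusted p = 0.00282), from much dimmer spots. The signals were 101, 104 and 114 units with GGCT and 40.7, 31.8 and 25.3 units in empty cells. The GGCT-OE arrays were close to each other (SD 0.07 on the log2 scale), whereas the empty arrays spread more widely (SD 0.43), so the differences were 1.20, 1.59 and 2.04 in experiments 1 to 3. Normexp background gave 0.72, and without experiment 2 the call was lost (1.62, adjusted p = 0.0581).

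**Figure D3:**
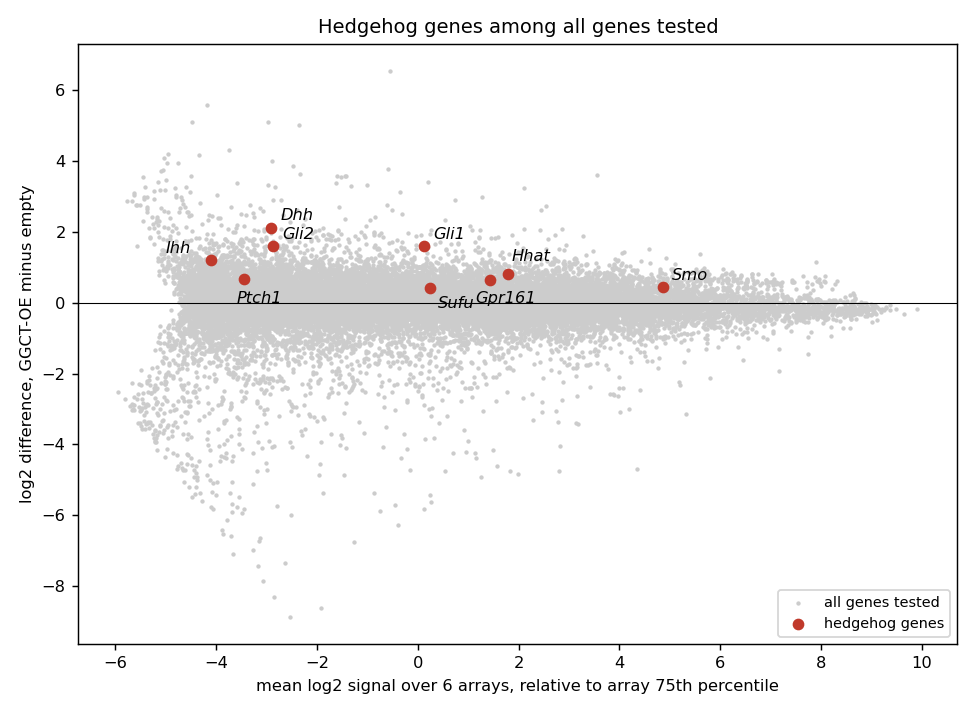
Log2 difference, GGCT-OE minus empty, against mean log2 signal over the 6 arrays for 23851 genes tested (grey) and the 9 hedgehog genes (red). The differences of Dhh, Gli1 and Gli2, at 2.12, 1.61 and 1.61, are higher than those of 99.5%, 98.8% and 98.8% of all genes tested, at any signal. Smo is the brightest of the 9, at 5.08 in GGCT-OE cells.

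Of the 15 hedgehog probes 13 passed the detection filter, and 9 of these were called higher and 0 lower, where 17.7% of all 31110 probes tested were called higher and 35.2% in either direction. The 4 tested probes without a call were the brighter one of Ptch1, the middle one of Sufu and the dimmer ones of Hhat and Gpr161. Of the 15 probes, 11 were detected on all 6 arrays, and the other 4 were both Ihh probes and the dimmer probes of Ptch1 and Gpr161.

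Of 4 other ligand, receptor and GLI genes 1 was tested, Gli3, and it was lower. Gli3, mainly a repressor in this pathway, stood at 2.33, 2.25 and 2.40 on the GGCT-OE arrays and at 2.75, 2.56 and 2.67 on the empty arrays. The difference was small (-0.33 ± 0.09, adjusted p = 0.0328), a call lost in 10 of 21 alternatives. The ligand Shh and the inhibitor Hhip, a pathway target that binds hedgehog ligands, stayed below the background limit throughout, so neither was tested.

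In genes that release the ligands or present them to Patched, 0 of 5 tested were higher and 3 were lower, beside 17.5% and 17.3% of all genes tested. Gpc6, a glypican of the cell surface, was at -3.72, -4.47 and -3.95 with GGCT and at -0.83, -1.19 and -0.96 in empty cells, a difference of -3.05 ± 0.21 (adjusted p = 0.000277, and -1.63 with normexp background). Scube2, which helps to release the ligands, was lower on its brightest probe (-1.52 ± 0.10, adjusted p = 0.000266) at signals of -3.92, -3.87 and -3.90 with GGCT against -2.24, -2.35 and -2.55 in empty cells. Another Scube2 probe, detected on all 6 arrays, differed by 0.06, and the mean of the probes by -0.45. The co-receptor Cdon was lower by 0.50 on average (-0.50 ± 0.12, adjusted p = 0.0212) and lost its call in 8 of 21 alternatives. Disp1, needed for ligand export, and the co-receptor Gas1 had differences of 0.33 (adjusted p = 0.0561) and -0.22 (adjusted p = 0.149), and with a replicate block they passed, at adjusted p = 0.0249 for Disp1 and 0.0355 for Gas1.

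Of 22 kinases, adaptors and ubiquitin ligases that act on Smo or GLI proteins, 3 were higher, 2 lower and 17 had no call, where 17.5% of all genes tested were higher and 17.3% lower. Grk2, a kinase of Smo, was higher by 0.55 ± 0.10 (adjusted p = 0.00811), Gsk3a, a GLI kinase, by 0.41 ± 0.09 (adjusted p = 0.0152) and Stk36, the mammalian Fused kinase, by 0.45 ± 0.10 (adjusted p = 0.0157). The arrestin Arrb1 was lower (-0.84 ± 0.12, adjusted p = 0.004), and so was Spop, a ubiquitin ligase adaptor for GLI proteins (-0.38, adjusted p = 0.0319). A further Spop probe differed by -0.14 (adjusted p = 0.435). Of the 17 genes without a call on the brightest probe, some had a dimmer probe that was called (limma over all probes). Such a probe was lower for Gsk3b (-0.53, adjusted p = 0.00352) and Ulk3 (-0.55, adjusted p = 0.00453). It was higher for Arrb2 (0.42, adjusted p = 0.0143), Csnk1d (0.37, adjusted p = 0.0362), Btrc (0.44, adjusted p = 0.049) and Itch (0.26, adjusted p = 0.0493). In the fit with a replicate block 9 of the 22 were higher and 3 lower, where 27.3% of all genes were higher and 26.0% lower. Among 13 tested genes of signal transduction in the cilium, Tulp3 (0.41 ± 0.08, adjusted p = 0.0114), which carries Gpr161 into cilia, and Iqce (0.81 ± 0.17, adjusted p = 0.013), a partner of the Evc complex, were higher. Ift88, a core protein of intraflagellar transport, was lower (-0.88 ± 0.09, adjusted p = 0.00113), also on its second probe (-0.80), and Evc2 was slightly lower (-0.28 ± 0.08, adjusted p = 0.0354). Of the 9 calls on the brightest probe in both lists, that of Ift88 was made in all 21 alternatives. That of Arrb1 was made in 20 and that of Grk2 in 19, while Evc2 passed in 9.

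**Figure D4:**
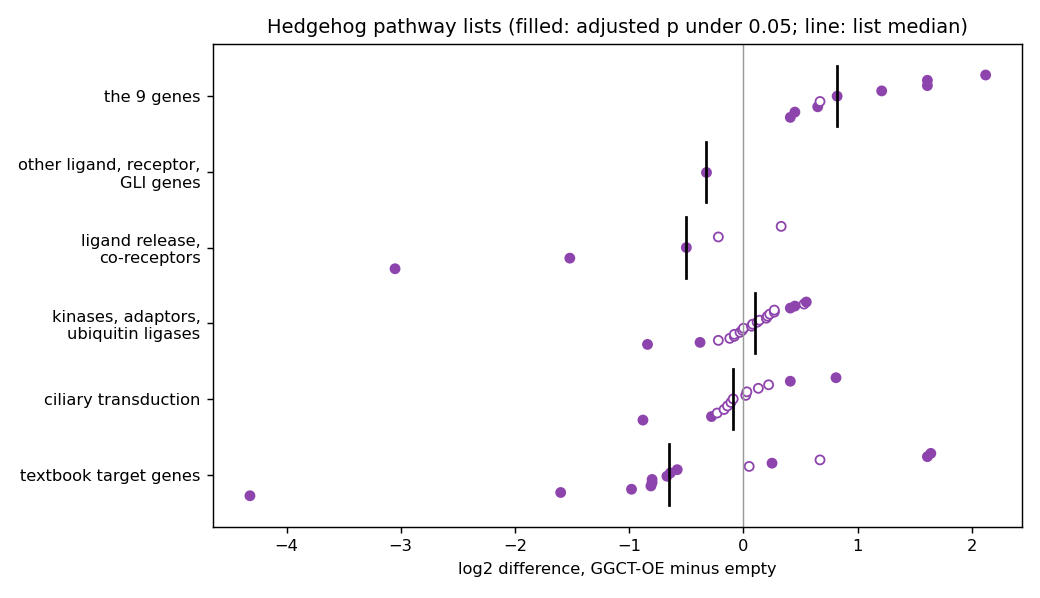
Log2 difference, GGCT-OE minus empty, of every tested gene in 6 hedgehog lists, filled where the adjusted p was under 0.05, with the list median as a black line (Sfrp1, the leftmost point, is drawn at its measured value although it was not detected with GGCT). The medians are 0.82 for the 9 genes, -0.50 for ligand release and co-receptors and -0.66 for textbook target genes, and Gli1 and Ptch1 are in both the first and the last list.

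The textbook target genes of the pathway went apart. Of 14 tested, 3 were higher and 9 lower, where the shares over all genes tested were 17.5% and 17.3%. Over the 21 alternatives, 2 to 4 of the list were called higher and 4 to 9 lower. Over all genes, 777 to 6655 were then higher and 1153 to 6211 lower. The list's median was -0.66, against 0.015 for all genes tested. Besides Gli1, Mycn, a proto-oncogene of the MYC family, was higher, at -0.84, -0.62 and -0.76 with GGCT and at -2.39, -2.24 and -2.51 in empty cells (1.64 ± 0.11, adjusted p = 0.000238, and 1.05 with normexp background). The other was Nr2f2, an orphan nuclear receptor (0.25 ± 0.07, adjusted p = 0.0372). Sfrp1, a secreted Wnt antagonist, was well above background on all empty arrays and on no GGCT-OE array, and was at least 8.98-fold lower with GGCT (adjusted p = 4.25e-05). Spp1, the secreted protein osteopontin, stood at 5.54, 5.83 and 5.57 with GGCT and at 7.21, 7.21 and 7.31 in empty cells (-1.60 ± 0.11, adjusted p = 0.000249). The D cyclin genes Ccnd1 and Ccnd2, the survival gene Bcl2, the forkhead genes Foxf1, Foxf2 and Foxl1, and Snai1 were lower too, with differences between -0.98 and -0.58. Of these, Foxf1 passed narrowly (-0.64, limma adjusted p = 0.0474). The list's median was -0.66, -0.69 and -0.70 in experiments 1, 2 and 3, and that of the 9 hedgehog genes 1.20, 0.83 and 0.86.

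Over the 65 other pathway genes of these lists, each counted once, 53 were tested, 7 of them were higher and 17 lower, and the median difference was -0.08. The shares over all genes tested were 17.5% higher and 17.3% lower. In the fit with a replicate block 15 were higher and 20 lower, where 27.3% of all genes were higher and 26.0% lower.

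Around each of the 9 genes, neighbours on the chromosome were called in both directions, where 17.5% of all genes tested were higher and 17.3% lower. Among the 20 tested genes that flank Dhh on chromosome 15, 10 on each side, 3 were higher and 4 lower, with a median difference of -0.10 and a highest one of 1.46. For Gli1 on chromosome 10 the counts were 3 and 4 (median -0.02, highest 1.42), and for Gli2 on chromosome 1 they were 1 and 7 (median -0.22, highest 0.84). The flanks of Smo on chromosome 6 and of Sufu on chromosome 19 had medians of 0.18 each, with 6 of 20 genes higher in both and 3 and 2 lower. Ihh, Hhat and Gpr161 are on chromosome 1 like Gli2, with flank medians of -0.17, -0.05 and 0.02 and highest flank differences of 5.11, 1.00 and 1.87. Their flanks held 3, 6 and 5 genes called higher and 7, 7 and 6 called lower. The flank of Ptch1 on chromosome 13 had 2 higher and 7 lower, with a median of -0.20. The lowest flank differences ran from -7.43 for Ptch1 to -0.45 for Sufu.

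Profiles over the 6 arrays, each centred on its mean, were compared among tested genes with a symbol. Members of the hedgehog and marker lists and Ggct were left out. Closest to Dhh were Cenpv, Grik5, Klra4, Tmem144 and Adgrb2, at root mean square distances between 0.138 and 0.166 and with Pearson r between 0.989 and 0.993. Closest to Gli1 were Ntf5, Dpy19l3, Plxnb1, Adamts4 and Tceal1, at distances between 0.074 and 0.110 and r between 0.991 and 0.999. The mean of each of these genes was higher with GGCT, and r includes that step between the 2 populations, over 6 arrays that all the genes share.

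**Figure D5:**
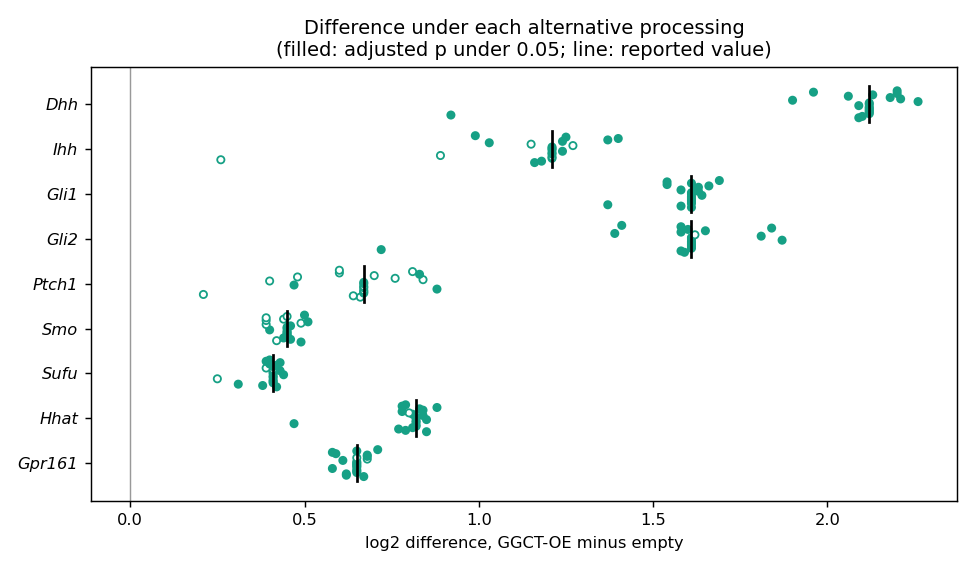
Log2 difference, GGCT-OE minus empty, of the 9 hedgehog genes under up to 21 alternative ways of processing, filled where the adjusted p was under 0.05, with a black line at the reported value. All points lie above 0, which leaving out arrays could not change because the groups do not overlap. Dhh and Gli1 are filled throughout, and the lowest values, 0.92 for Dhh, 0.26 for Ihh, 0.72 for Gli2 and 0.21 for Ptch1, come from normexp background.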

How the data were processed

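The authors' deposited scanner files hold 1-colour spot intensity values made with Agilent Feature Extraction 12.1.0.3, with background subtracted and detrended within each array, per the file headers. The authors' deposited series table holds log2 values that equal the log2 processed intensity minus 1 constant per array (correlation 1 over probes brighter than 200 units). Nothing used here says how the constant was chosen, and the table's column medians lay between -3.87 and -3.69. Control spots (3671) and 578 outlier-flagged spots were left out, and replicate spots averaged. RefSeq accessions (GRCm38.p6) named 34546 of 56570 probes. The grid file names another build (mm9), so the gene table served only for names and neighbours, and printed promoters carry the table's own build.

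Arrays were aligned by subtracting each one's 75th percentile of log2 intensity. A gene was read from its brightest probe and tested where every array of one group or the other found that probe well above background, with limma 3.58.1 in R 4.3.3 (2-sided, adjusted over 23851 genes, threshold 0.05). Probes were tested likewise. The fitting steps were first tested on simulated data. For a bound ("at least"), each dim array's value was raised to that array's lowest well-above-background signal where it lay below it, and the bright mean was divided by the mean of these. Precision is limited by having 3 arrays a group.

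Slide 1 (scan 1) held the 2 arrays numbered 1, and slide 2 (scan 2) the other 4. Deviations from the group means correlated between arrays of the same number (r = 0.731, 0.453 and 0.358 for numbers 1 to 3). Between numbers 2 and 3, which share slide 2, r was 0.343 and 0.300. Between number 1 and the other numbers, which lie on different slides, it ran from -0.557 to -0.465. Deviations within a group cancel out, so a positive r for number 1 forces negative r elsewhere, whatever the slides. A pairing by number and a shared slide cannot be told apart from these values. The numbers in the titles were taken to pair the samples for within-experiment differences, while the main fit used no block. The 9 genes, the lists and the marker genes were chosen with earlier results of these data known. Named are all 9 genes with every probe, Ggct, and the 5 profiles nearest to Dhh and to Gli1 among the genes compared. Also named are list genes that passed the test, with values for up to 4 per list by smallest p and where probes differ. Values of Disp1, Gas1, Shh, Hhip and Nr2f2, and of called dimmer probes of list genes without a call, were added after they were seen. In addition, 1 listed pathway gene and 1 marker gene are not reported here.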

Additional observations from a re-analysis of the deposited data

How the results depend on the processing

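The 9 differences kept their sign in all 21 alternatives run (20 for Ihh). As the groups do not overlap on the brightest probe, leaving out or weighting arrays could not turn a sign. Blocks, filters and other variance settings left the difference itself as it was. Dhh and Gli1 were called in all alternatives, Gli2 and Hhat in all but 1, Gpr161 in 19, Sufu in 17, Ihh in 15, Smo in 13 and Ptch1 in 5. With no filter on dim probes 2228 genes were higher and 2498 lower, 5 of the 9 hedgehog genes were called, 2 other pathway genes were higher and 11 lower, and Ggct had a difference of 0.62 (adjusted p = 0.0506). More genes were called with array weights (6655 higher and 6200 lower, 11 other pathway genes higher), with the replicate number as a block (6515 and 6211, 9 of the 9 hedgehog genes, 15 other pathway genes higher) and with a slide block (6585 higher and 6207 lower, 14 other pathway genes higher). Leaving out 1 array or both arrays of a replicate number gave 777 to 4623 genes higher and 1153 to 4565 lower, 3 to 8 hedgehog genes, 1 to 7 other pathway genes higher and 7 to 15 lower, and 0.47 to 0.71 for Ggct. The lowest counts, 777 and 1153, came without replicate 3 of both groups, and 1355 and 1678 without replicate 2, each with 3 hedgehog genes called. Leaving out single arrays gave 2571 (empty replicate 3) to 3792 genes higher, with 2755 without empty replicate 2, and 2 to 6 other pathway genes higher. Ggct was not called without replicate 2 (0.47) or replicate 3 (0.67) of both groups. Signs turned for 2 results without a call: the middle Sufu probe (0.48 with array weights, 0.61 without replicate 1 of both groups, -0.47 to 0.45 without single arrays, 0.01 without GGCT-OE replicate 1) and the dimmer Hhat probe (-0.15 to 0.28 without single arrays, 0 without GGCT-OE replicate 3, -0.01 without replicate 1 of both groups). Among the genes with values, the replicate block changed the calls of Ptch1, Disp1 and Gas1. The causes were not tested. Low signal limits the dim probes. Normexp background gave smaller differences for Dhh, Ihh, Gli2 and Ptch1, as reported, but its offset of 50 units by itself makes log2 differences of dim spots smaller.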
